A study of Mus musculus with 9 samples.

Results

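The report concerns 39 genes of glutathione metabolism, measured in scrapings of mouse colon epithelium after up to 14 days of a diet with heme, the iron-containing pigment of red meat. They were taken from a list of names, drawn up with earlier results of these data known, so the shares of members given against all genes are descriptions. The list covers glutathione synthesis, its turnover and recycling, the glyoxalases and glutaredoxin, the glutathione peroxidases, and the glutathione S-transferases by class. Of the 39 genes, 38 had a probeset that names that gene alone, among 19938 such genes on the array, and Ggt1 was not measured in this way. Where a gene had several probesets, the one with the highest mean was used. All values are log2 expression.

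Glutathione is a small peptide of glutamate, cysteine and glycine that cells keep at high concentration as a reducing agent. Its synthesis is limited by glutamate-cysteine ligase, and its oxidised form is returned to the reduced form with NADPH. Peroxidases spend it on hydrogen peroxide and lipid peroxides, and transferases join it to reactive aldehydes and other electrophiles, many of which reach the gut surface with food and bile. Many of these genes are known targets of Nrf2 (Nfe2l2), a transcription factor that is freed from its inhibitor Keap1 by oxidants and electrophiles.

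There were 4 heme pools, of days 2, 4, 7 and 14, and 5 control pools, of days 0, 2, 4, 7 and 14, each hybridised to 1 Affymetrix whole-transcript array. The mice were male C57BL/6J of 9 to 11 weeks, and all ate the control diet, with 40% of energy from fat, for a run-in of 1 week. After it the heme groups received that diet with 0.2 µmol heme per g and the control groups stayed on it, and the day 0 pool was taken as the run-in closed. The control pool of day 2 combined 3 mice and all others combined 4, so no value here shows the spread between animals, and each diet and day is 1 array.

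The array medians lay between 5.89 and 5.96 log2. Markers of colon epithelium were bright, with a list mean of 11.90 to 11.98 log2 in the heme pools and 11.81 to 11.87 in the control pools, and 7 of the 10 were higher in the heme pools. That list therefore moved with the diet too, and its part in the results below was not tested. Both pools of day 2 held exocrine pancreas RNA, at a list mean of 9.59 in the heme pool and 9.06 in the control pool, against 5.52 to 5.63 in the other 7 arrays. In the same pools fibroblast markers were at 7.14 in each, against up to 7.94 in the other heme pools and up to 8.21 in the other control pools.

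Promoter sequence was examined for the core of the antioxidant response element, the site that Nrf2 binds. Windows from 250 bases before to 50 after the start site were taken from RefSeq (GRCm38.p6) and searched on both strands for TGACNNNGC. The table held windows for 34 of the 39 genes, and none for Gclc, Gsr, Oplah, Gsta4 and Gstt2. Of their 51 windows 10 held a match, or 19.6%, against 12.4% of all 32851 windows, and the 10 belonged to 8 genes, 3 of the windows to Ggt1, which was not measured. Matches were also found for Ggct, Hagh, Gstm5 and Gstm7, which were called in no comparison. Windows of Gss, Glo1, Gpx2, Gpx4, Gstm1, Gstm2, Gstm3, Gstm4, Gstp1, Gstt3, Gsto1, Mgst2 and Mgst3 held none. All of these genes were called higher on day 14. The windows below belong to some of the genes that the results turn on and were chosen after those were seen. They hold matches, in capitals, more often than the windows of the list as a whole. Gclm lies on the plus strand at chr3:122245307-122245606, with a match on the opposite strand that starts 134 bases before the start site. Gsta3 lies on the plus strand at chr1:21240335-21240634, with a match on the gene's own strand 121 bases before the start. The window shown for Mgst1 is the 1 of its 2 with a match, at chr6:138140277-138140576 on the plus strand, with the match on the opposite strand 56 bases before the start. Mgst2, at chr3:51660929-51661228 on the plus strand, held none.
Gclm: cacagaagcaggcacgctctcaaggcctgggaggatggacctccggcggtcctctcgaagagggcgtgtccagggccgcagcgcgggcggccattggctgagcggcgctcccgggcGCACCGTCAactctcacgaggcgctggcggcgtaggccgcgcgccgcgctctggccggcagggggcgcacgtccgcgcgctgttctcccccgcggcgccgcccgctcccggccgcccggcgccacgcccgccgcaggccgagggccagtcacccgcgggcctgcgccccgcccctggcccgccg
Gsta3: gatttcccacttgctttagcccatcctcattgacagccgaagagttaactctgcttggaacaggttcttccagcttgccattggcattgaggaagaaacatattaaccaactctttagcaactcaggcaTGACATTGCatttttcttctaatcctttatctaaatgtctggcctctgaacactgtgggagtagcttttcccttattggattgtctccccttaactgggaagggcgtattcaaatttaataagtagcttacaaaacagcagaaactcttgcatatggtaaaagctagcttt
Mgst1: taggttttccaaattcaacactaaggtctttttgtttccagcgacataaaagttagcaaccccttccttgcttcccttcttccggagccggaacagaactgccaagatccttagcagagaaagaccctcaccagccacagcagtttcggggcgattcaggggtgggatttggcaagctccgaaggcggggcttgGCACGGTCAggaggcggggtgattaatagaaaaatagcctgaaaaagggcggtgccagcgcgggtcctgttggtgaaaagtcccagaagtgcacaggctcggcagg
Mgst2: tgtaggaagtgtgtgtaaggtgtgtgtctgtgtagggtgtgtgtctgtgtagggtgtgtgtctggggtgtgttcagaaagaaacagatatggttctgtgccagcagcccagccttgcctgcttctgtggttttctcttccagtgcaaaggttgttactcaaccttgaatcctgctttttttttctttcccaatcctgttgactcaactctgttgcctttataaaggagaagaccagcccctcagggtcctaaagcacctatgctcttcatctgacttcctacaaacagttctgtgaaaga
A match is a run of letters and not a measured binding site. No binding was measured in these samples.

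Between the diets, Gclc and Mgst2 rose, and no member fell. They were 2 of the 37 members bright enough to be tested, where a gene was tested if its mean over the arrays reached 4.716 log2 and called at an adjusted p under 0.05 in limma. Over all 14953 genes tested, 0.595% were called higher and 0.0736% lower. Of the 37 members 16 were higher and 1 lower at an unadjusted p under 0.05, against 2547 of the 14953 genes tested in either direction. The median log2 fold change of the 38 measured members was 0.10, against -0.002 for all genes tested. In 8 members every heme pool lay above every control pool, 21.1% of the 38 against 3.26% of all genes tested. They were Gclc, Gclm, Gss, Gpx4, Gstp1, Gstk1, Mgst2 and Mgst3. In no member did every heme pool lie below, against 2.33% of all genes. Set against the control pool of its own day, the heme pool was higher on all 4 days in 16 members, 42.1% against 10.9% of all genes, and below it on all 4 in 1 member, Glrx, against 12% of all genes.

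The calls depended on single pools. The count of members called higher was 6 without the heme pool of day 2 (Gclc, Gclm, Gpx4, Gsto1, Mgst2 and Mgst3), 1 on leaving out the day 14 heme or day 7 control pool, and 0 on leaving out the day 7 heme pool or a control pool of day 0, 2, 4 or 14. The counts over all genes moved too, to 172 called higher on leaving out the day 2 heme pool and to between 30 and 78 on leaving out any other pool. Fold changes that did not pass the test also leaned on the day 14 heme pool, without which Gsta3 was at 0.275 in place of 0.51, Gpx2 at 0.0913 in place of 0.20 and Gstm3 at 0.12 in place of 0.23. Because pools of a diet differ in day, the p-values rest on a spread that mixes days with handling, and not on animals.

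**Figure D1:**
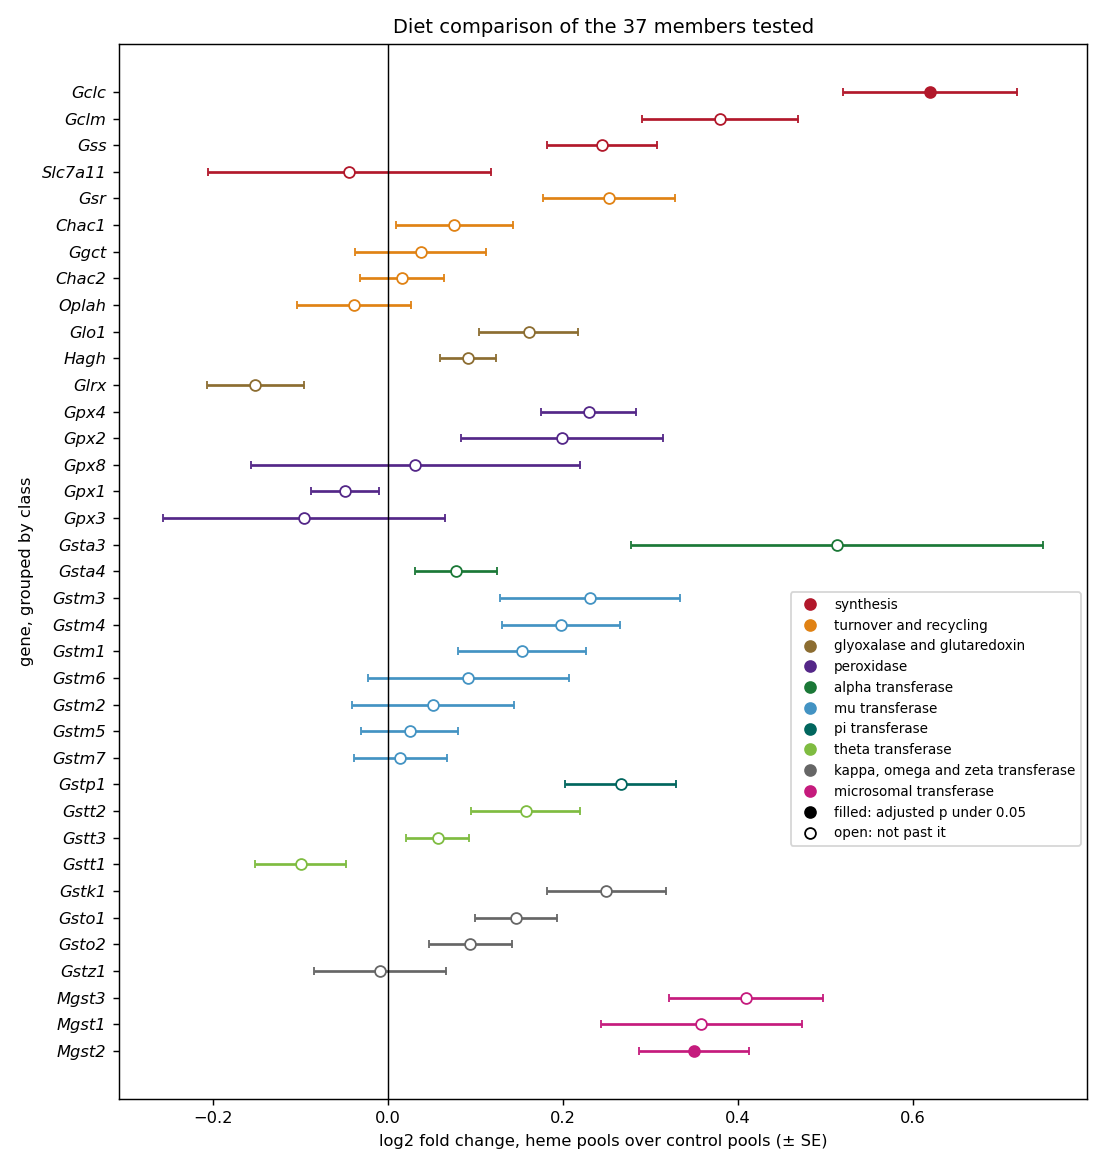
Log2 fold change of each of the 37 tested members, heme pools over control pools, with its SE from limma (n = 4 heme and 5 control pools), grouped and coloured by class. The 2 filled points, Gclc at 0.62 and Mgst2 at 0.35, passed an adjusted p of 0.05, and the 3 microsomal transferases lie together between 0.35 and 0.41.

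The highest fold change between the diets among the members was that of a synthesis gene, Gclc. Gclc, the catalytic subunit of glutamate-cysteine ligase, had 9.97, 9.96, 10.22 and 10.47 log2 in the heme pools of days 2, 4, 7 and 14, against 9.40, 9.60, 9.51, 9.62 and 9.53 in the control pools of days 0, 2, 4, 7 and 14. Every heme pool was above every control pool, and the later heme pools were higher than the earlier ones. It averaged 10.15 ± 0.24 in heme pools (SD, n = 4) and 9.53 ± 0.09 in control pools (SD, n = 5), a 1.54-fold rise (log2 fold change 0.62, SE 0.10, limma adjusted p = 0.0208). With the day as a block the adjusted p was 0.0523. Leaving out 1 pool at a time, Gclc stayed called in 4 of 9 fits, with adjusted p-values up to 0.098.

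Gclm, the modifier subunit of the same enzyme, had 9.41, 9.46, 9.70 and 9.80 log2 in the heme pools in order of day, and 9.02, 9.32, 9.18, 9.31 and 9.24 in the control pools in order of day. The groups did not overlap, though the heme pool of day 2 lay close to the highest control pool. The log2 fold change of 0.38 (SE 0.09) did not pass the test (limma adjusted p = 0.114). Leaving out 1 pool at a time, Gclm was called in 1 of 9 fits, that without the day 2 heme pool (adjusted p = 0.0452). In the others the adjusted p reached 0.279. Gss, glutathione synthetase, which adds glycine in the last step, stood at 10.00, 9.90, 10.17 and 10.21 in the heme pools and at 9.85, 9.83, 9.73, 9.85 and 9.88 in the control pools. Again the groups did not overlap, with the smallest gap on day 4 (log2 fold change 0.24, SE 0.06, limma adjusted p = 0.141). Leaving out 1 pool at a time, Gss was called in 1 of 9 fits, that without the day 4 heme pool (adjusted p = 0.0483). Elsewhere the adjusted p reached 0.303.

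Slc7a11, the antiporter that imports cystine for synthesis, did not share this pattern. It was dim, at 4.78, 4.73, 5.11 and 5.45 log2 in the heme pools and 5.01, 5.18, 5.06, 4.71 and 5.35 in the control pools. The groups overlapped throughout, and the log2 fold change was -0.04 (SE 0.16, limma adjusted p = 0.897), with a sign that turned on leaving out any 1 of 3 pools, the day 14 control, day 2 heme or day 4 heme pool.

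**Figure D2:**
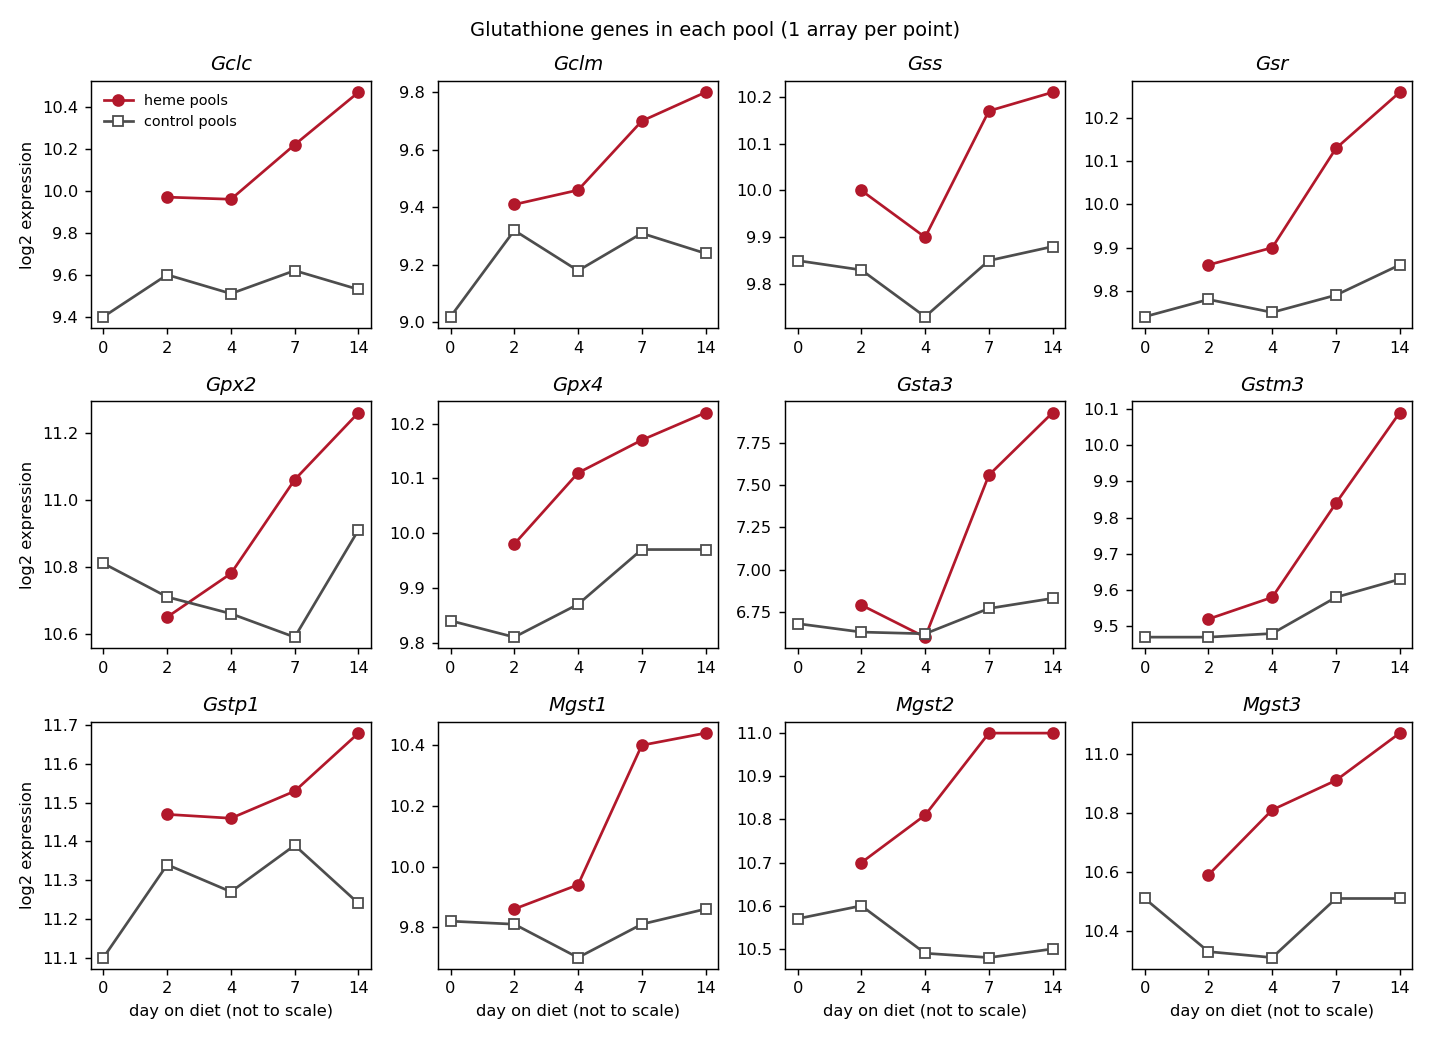
Log2 expression (vertical axis, a separate range for each gene) by day on diet (horizontal axis, not to scale) for 12 genes, with heme pools as filled circles and control pools as open squares, 1 array per point and no error bars because no pool has a replicate. The heme points of Gclc, Gclm, Gss, Gpx4, Gstp1, Mgst2 and Mgst3 all lie above their control points, while Gsta3 and Mgst1 part from the controls mainly on days 7 and 14.

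Among genes of turnover and recycling, Gsr had the highest fold change. Gsr, glutathione reductase, which returns oxidised glutathione to its reduced form, had 9.86, 9.90, 10.13 and 10.26 log2 in the heme pools and 9.74, 9.78, 9.75, 9.79 and 9.86 in the control pools. Its heme pools were higher on each day in turn, and that of day 2 was level with the control pool of day 14 (log2 fold change 0.25, SE 0.08, limma adjusted p = 0.177). Oplah, the oxoprolinase that returns glutamate from a breakdown product, had the lowest fold change of the class. Its values were 7.61, 7.74, 7.44 and 7.61 in the heme pools and 7.60, 7.65, 7.61, 7.78 and 7.56 in the control pools (log2 fold change -0.04, SE 0.06, adjusted p = 0.763). Its sign turned without the heme pool of day 7. Chac1 and Chac2, which cleave glutathione inside the cell, and Ggct, which acts on gamma-glutamyl peptides, were at 0.08, 0.02 and 0.04 on the log2 scale, with adjusted p-values of 0.548, 0.872 and 0.802. All 3 overlapped between the diets. The class median was 0.04, against 0.31 for the 4 synthesis genes.

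Glo1 and Hagh, which convert methylglyoxal to lactate in consecutive steps, were higher in the heme pool on each of the 4 days they shared with a control pool. Glo1 had 9.16, 9.21, 9.33 and 9.44 log2 in the heme pools and 9.09, 9.12, 9.06, 9.19 and 9.18 in the control pools (log2 fold change 0.16, SE 0.06, limma adjusted p = 0.225). Hagh had a log2 fold change of 0.09 (SE 0.03, adjusted p = 0.224). Glrx, glutaredoxin, which removes glutathione from protein thiols, ran the other way. It stood at 9.71, 9.67, 9.61 and 9.43 in the heme pools and at 9.71, 9.79, 9.73, 9.83 and 9.71 in the control pools. Its log2 fold change of -0.15 was the lowest of all members measured (SE 0.06, adjusted p = 0.237), and the heme pool of day 14 was the lowest of the 9 arrays.

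The peroxidases were mixed. Gpx4, which reduces lipid peroxides within membranes, had 9.98, 10.11, 10.17 and 10.22 log2 in the heme pools and 9.84, 9.81, 9.87, 9.97 and 9.97 in the control pools. The groups did not overlap, by a narrow gap between the heme pool of day 2 and the control pools of days 7 and 14 (log2 fold change 0.23, SE 0.05, limma adjusted p = 0.116). Leaving out 1 pool at a time, Gpx4 was called in 1 of 9 fits, that without the day 2 heme pool (adjusted p = 0.0255). Elsewhere the adjusted p reached 0.279. Gpx2, the form typical of gut epithelium and a known Nrf2 target, had 10.65, 10.78, 11.06 and 11.26 in the heme pools and 10.81, 10.71, 10.66, 10.59 and 10.91 in the control pools. Its heme pools of days 2 and 4 lay within the control range and those of days 7 and 14 above it (log2 fold change 0.20, SE 0.12, adjusted p = 0.385).

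Gpx1, the ubiquitous cytosolic form, had 10.19, 10.32, 10.36 and 10.38 log2 in the heme pools and 10.36, 10.36, 10.36, 10.35 and 10.39 in the control pools. Its heme pool of day 2 was the lowest array, and the pools of days 7 and 14 stood at control level (log2 fold change -0.05, SE 0.04, limma adjusted p = 0.507). Of its 5 control values 3 were identical after the summarising step. In all, 9 of the 38 members had a value repeated among the control pools.

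Gpx3, the secreted form, had 5.90, 6.37, 6.56 and 6.67 log2 in the heme pools and 6.21, 6.34, 6.58, 6.43 and 6.80 in the control pools (log2 fold change -0.10, SE 0.16, limma adjusted p = 0.762). Gpx8, a peroxidase of the endoplasmic reticulum, ranged from 5.62 to 6.50 in the heme pools and from 5.66 to 6.31 in the control pools (0.03, adjusted p = 0.938). The sign of Gpx3 turned on leaving out the day 2 heme pool, and that of Gpx8 with the day as a block. Both had their lowest heme value on day 2. Of the lists of other cells, those of fibroblasts, macrophages, smooth muscle and B and plasma cells were also lowest of the heme pools there. Those of enteroendocrine cells, T cells, hepatocytes and exocrine pancreas were highest there, and those of goblet cells and adipocytes were neither. The mean of 9 smooth muscle markers was 6.79, 7.31, 8.37 and 6.99 in the heme pools in order of day, and 6.83 to 8.93 in the control pools. Over the heme pools of days 2, 4, 7 and 14 the mean of 8 fibroblast markers was 7.14, 7.46, 7.94 and 7.80, and over the control pools of days 0, 2, 4, 7 and 14 it was 7.54, 7.14, 7.96, 7.84 and 8.21. The mean of 7 macrophage markers was 6.50 to 7.12 in the heme pools and 6.67 to 7.35 in the control pools, and all 7 averaged lower in the heme pools, as did 7 of the 8 fibroblast markers. Their part in the values of Gpx3 and Gpx8 was not tested, and in pooled tissue fewer cells of a type and less RNA per cell cannot be told apart. Gpx7, a relative of Gpx8, was below the filter on dim genes, at 4.33 to 4.58 in the heme pools and 4.07 to 4.45 in the control pools. The class median of the 6 peroxidases was 0.07, and 0.0309 to 0.153 on leaving out 1 pool, lowest without the day 2 control pool and highest without the day 2 heme pool.

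The alpha class held the steepest single gene. Gsta3, whose products conjugate electrophiles and whose promoter match is shown above, had 6.79, 6.60, 7.56 and 7.93 log2 in the heme pools and 6.68, 6.63, 6.62, 6.77 and 6.83 in the control pools. Its heme pools of days 2 and 4 lay within or just below the control range and those of days 7 and 14 far above it. The spread within heme pools, 0.63 SD against 0.09 in control pools, left the log2 fold change of 0.51 short of the threshold (SE 0.24, limma adjusted p = 0.300). Gsta4, which clears the lipid peroxidation product hydroxynonenal, had 9.53, 9.56, 9.69 and 9.54 in the heme pools and 9.48, 9.53, 9.48, 9.61 and 9.42 in the control pools (0.08, SE 0.05, adjusted p = 0.394).

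All 7 mu class genes had a positive log2 fold change, from 0.01 to 0.23, and none was called. Gstm3 had 9.52, 9.58, 9.84 and 10.09 log2 in the heme pools and 9.47, 9.47, 9.48, 9.58 and 9.63 in the control pools (0.23, SE 0.10, limma adjusted p = 0.291). Gstm1 had 9.54, 9.50, 9.66 and 9.91 in the heme pools and 9.49, 9.50, 9.51, 9.47 and 9.54 in the control pools (0.15, SE 0.07, adjusted p = 0.312). In both the heme pools of days 7 and 14 were above all control pools and those of days 2 and 4 were not. Gstm4 had 7.62, 7.75, 7.91 and 7.93 in the heme pools and 7.54, 7.64, 7.59, 7.55 and 7.71 in the control pools (0.20, SE 0.07, adjusted p = 0.218). Gstm2 had 7.75, 7.83, 8.01 and 8.24 in the heme pools and 7.91, 7.87, 7.77, 7.96 and 8.02 in the control pools (0.05, SE 0.09, adjusted p = 0.779). Only the heme pool of day 14 of Gstm2 lay above all its control pools. Gstm7 had the lowest log2 fold change of the class, with 7.14, 6.99, 7.16 and 7.23 in the heme pools and 7.13, 7.15, 7.03, 7.13 and 7.15 in the control pools (0.01, SE 0.05, adjusted p = 0.899), and Gstm5 and Gstm6 were at 0.02 and 0.09. The signs of Gstm2 and Gstm7 turned without the heme pool of day 14, those of Gstm5 and Gstm7 without the control pool of day 4, and that of Gstm6 without both pools of day 7. Mu class genes lie on chromosome 3 and resemble each other, and how far their probesets take up each other's RNA was not tested.

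Gstp1, the pi class enzyme, had 11.47, 11.46, 11.53 and 11.68 log2 in the heme pools and 11.10, 11.34, 11.27, 11.39 and 11.24 in the control pools. The groups did not overlap, and the log2 fold change was 0.27 (SE 0.06, limma adjusted p = 0.120). In the theta class Gstt2 had 7.99, 7.99, 8.19 and 8.24 in the heme pools and 7.99, 7.91, 7.85, 7.99 and 7.99 in the control pools (0.16, SE 0.06, adjusted p = 0.260). Gstt1 had 7.39, 7.40, 7.20 and 7.30 in the heme pools and 7.51, 7.36, 7.40, 7.44 and 7.40 in the control pools (-0.10, SE 0.05, adjusted p = 0.345). The third theta gene, Gstt3, stayed in a narrow range, with 8.95, 9.00, 9.01 and 9.11 in the heme pools and 8.97, 8.96, 8.97, 8.97 and 8.93 in the control pools (0.06, SE 0.04, adjusted p = 0.416).

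Gstk1, the kappa enzyme of mitochondria and peroxisomes, had 9.81, 10.00, 10.01 and 9.81 log2 in the heme pools and 9.49, 9.72, 9.59, 9.78 and 9.71 in the control pools. It was highest on days 4 and 7 (log2 fold change 0.25, SE 0.07, limma adjusted p = 0.156). Gsto1, an omega enzyme that reduces dehydroascorbate, had 11.59, 11.73, 11.82 and 11.79 in the heme pools and 11.56, 11.63, 11.53, 11.57 and 11.63 in the control pools (0.15, SE 0.05, adjusted p = 0.196). Leaving out 1 pool at a time, Gsto1 was called in 1 of 9 fits, that without the day 2 heme pool (adjusted p = 0.0289, and up to 0.414 elsewhere). Its relative Gsto2 was at 0.09 (adjusted p = 0.334). Gstz1, which isomerises a product of tyrosine breakdown, had 7.44, 7.44, 7.59 and 7.19 in the heme pools and 7.44, 7.42, 7.29, 7.52 and 7.44 in the control pools (-0.01, SE 0.08, adjusted p = 0.958), and its sign turned with the arrays centred on their medians and on leaving out the day 14 heme or day 7 control pool. Over the 17 alpha, mu, pi, theta, kappa, omega and zeta genes the class median was 0.09, and 0.18 without the heme pool of day 2.

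The 3 microsomal transferases, membrane enzymes of the endoplasmic reticulum that also reduce lipid peroxides, were higher in the heme pools by similar amounts. Mgst2, which can also make cysteinyl leukotrienes, had 10.70, 10.81, 11.00 and 11.00 log2 in the heme pools and 10.57, 10.60, 10.49, 10.48 and 10.50 in the control pools. The groups did not overlap, with means of 10.88 ± 0.15 in heme pools (SD, n = 4) and 10.53 ± 0.06 in control pools (SD, n = 5), and Mgst2 rose 1.27-fold (log2 fold change 0.35, SE 0.06, limma adjusted p = 0.0392). The call was lost with the day as a block (adjusted p = 0.0978), and in 8 of the 9 fits that left out 1 pool, with the heme pool of day 2 as the exception (adjusted p = 0.00656 on leaving it out and up to 0.134 in the other 8).

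Mgst3 had 10.59, 10.81, 10.91 and 11.07 log2 in the heme pools and 10.51, 10.33, 10.31, 10.51 and 10.51 in the control pools. Its groups did not overlap either, and each heme pool was higher than the one before (log2 fold change 0.41, SE 0.09, limma adjusted p = 0.0829). With the day as a block Mgst3 was called (0.43, adjusted p = 0.0298). Leaving out 1 pool at a time, it was called in 1 of 9 fits, with adjusted p-values up to 0.254 in the others. Mgst1 had 9.86, 9.94, 10.40 and 10.44 in the heme pools and 9.82, 9.81, 9.70, 9.81 and 9.86 in the control pools, a step between days 4 and 7 (0.36, SE 0.11, adjusted p = 0.198). The class median was 0.36.

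Genes with several probesets allowed a check within the array. For Gpx4 the second probeset gave a difference of 0.20 log2 between the diet means, beside 0.23 for the one used. Those of Glo1 gave 0.15 and 0.16, with near-identical values in every pool. For Gstm3 the second probeset gave 0.33 overall and 0.78 on day 14, beside 0.23 and 0.56. In that second probeset the heme pool of day 4, at 8.89 log2, also lay above all control pools, at 8.57 to 8.81. With the probeset used it did not. Of the 3 probesets that name Gstp1, the 2 shared with its near-copy Gstp2 gave 0.29 and 0.28, beside 0.27 for the one used. The direction was the same in each pair, but probesets of a gene may read the same RNA and are not independent evidence.

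By day of heme, no member was called on day 2 or day 4, 5 were called on day 7 and 20 on day 14. In these tests 1 heme pool is set against the 5 control pools, and its spread is assumed to be that of the controls. On day 2, 0% of all genes were called in limma. At an unadjusted p under 0.05 there were 5 of the 37 members, 3 higher and 2 lower, against 9.26% of all genes. Gclc was 0.43 log2 above the control mean (adjusted p = 0.357), while Gpx3 and Gpx1 were at -0.57 and -0.17 (adjusted p = 0.478 and 0.342). On day 4, 0.00669% of all genes were called and 0 members, and 6 members had an unadjusted p under 0.05, all higher, against 7.02% of all genes. Gclc stood at 0.42, Mgst3 at 0.38 and Gstk1 at 0.34 (adjusted p = 0.347, 0.515 and 0.569).

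On day 7 Gclc, Gsr, Gsta3, Mgst1 and Mgst2 rose, 5 of 37 or 13.5%, against 0.883% of all genes tested, and 0 members fell, against 0.749%. Gsta3 was 1.80-fold above the control mean (log2 difference 0.85, limma adjusted p = 0.0216), Gclc 1.60-fold (0.68, adjusted p = 0.0283) and Mgst1 1.51-fold (0.60, adjusted p = 0.0186). Mgst2 was 1.39-fold (adjusted p = 0.0254) and Gsr 1.27-fold (adjusted p = 0.0368) above it. These calls rested on all 5 control pools. Without any 1 of the 5 control pools at most 1 of the 5 remained called, Gclc without that of day 0 and Mgst1 without that of day 4. Over all genes tested, 3 to 39 were called higher in these fits, in place of 132. With the arrays centred on their medians 10 members were called higher on day 7, and 274 of all genes tested in place of 132. The share of higher genes among all calls was then 64.5% in place of 54.1%.

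On day 14, 19 members rose, 51.4% of the 37, against 11.3% of all genes tested. Only Glrx fell, against 15.8% of all genes. Gsta3 was 2.34-fold above the control mean (log2 difference 1.23, SE 0.09, limma adjusted p = 0.00251), Gclc 1.92-fold (0.94, SE 0.08, adjusted p = 0.00343) and Mgst1 1.55-fold (0.64, SE 0.06, adjusted p = 0.00413). Mgst3 was also 1.55-fold above it (adjusted p = 0.00903), Gclm 0.58 log2 (adjusted p = 0.0165) and Gstm3 1.48-fold (adjusted p = 0.0061). Gpx2 was 1.44-fold (adjusted p = 0.0222), Gsr 1.39-fold (adjusted p = 0.00478) and Mgst2 1.39-fold (adjusted p = 0.00535) above the control mean. Glrx was at -0.33 log2 (adjusted p = 0.0116). The others called were Gss, Glo1, Gpx4, Gstm1, Gstm2, Gstm4, Gstp1, Gstt2, Gstt3 and Gsto1, with differences of 0.15 to 0.41 log2. By class these are 3 of 4 synthesis genes, 1 of 5 of turnover and recycling, 4 of 7 mu genes, 2 of 3 theta genes, 2 of 5 tested peroxidases and 3 of 3 microsomal transferases, with Gsta3 of 2 alpha genes, Gstp1, Gsto1 of 4 kappa, omega and zeta genes, and Glo1 of 3 glyoxalase and glutaredoxin genes. Lists of other cell types moved in the same pool. The mean of 5 enteroendocrine markers was 6.98 log2 on day 7 and 6.68 on day 14, against 7.24 to 7.49 in the control pools, and that of 5 goblet markers was 11.67 on day 14, against 11.86 to 11.98 in the control pools. The mean of 5 adipocyte markers was 5.67 to 5.80 in the heme pools, above the 5.30 to 5.66 of the control pools. Their part in the members' values was not tested. Without any 1 control pool 16 to 18 members were called higher, and 1140 to 1488 of all genes tested in place of 1686. The calls lost were Gpx2 without the control pool of day 2 (adjusted p = 0.0559), Gstm2 without that of day 0, 2 or 7 (up to 0.0815), Gsto1 without that of day 0 or 7 (up to 0.057) and Gstp1 without that of day 2, 4 or 14 (up to 0.0685). With the arrays centred on their medians 22 members were called higher on day 14, and 2627 of all genes tested in place of 1686. The share of higher genes among all calls was then 62.8% in place of 41.7%.

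**Figure D3:**
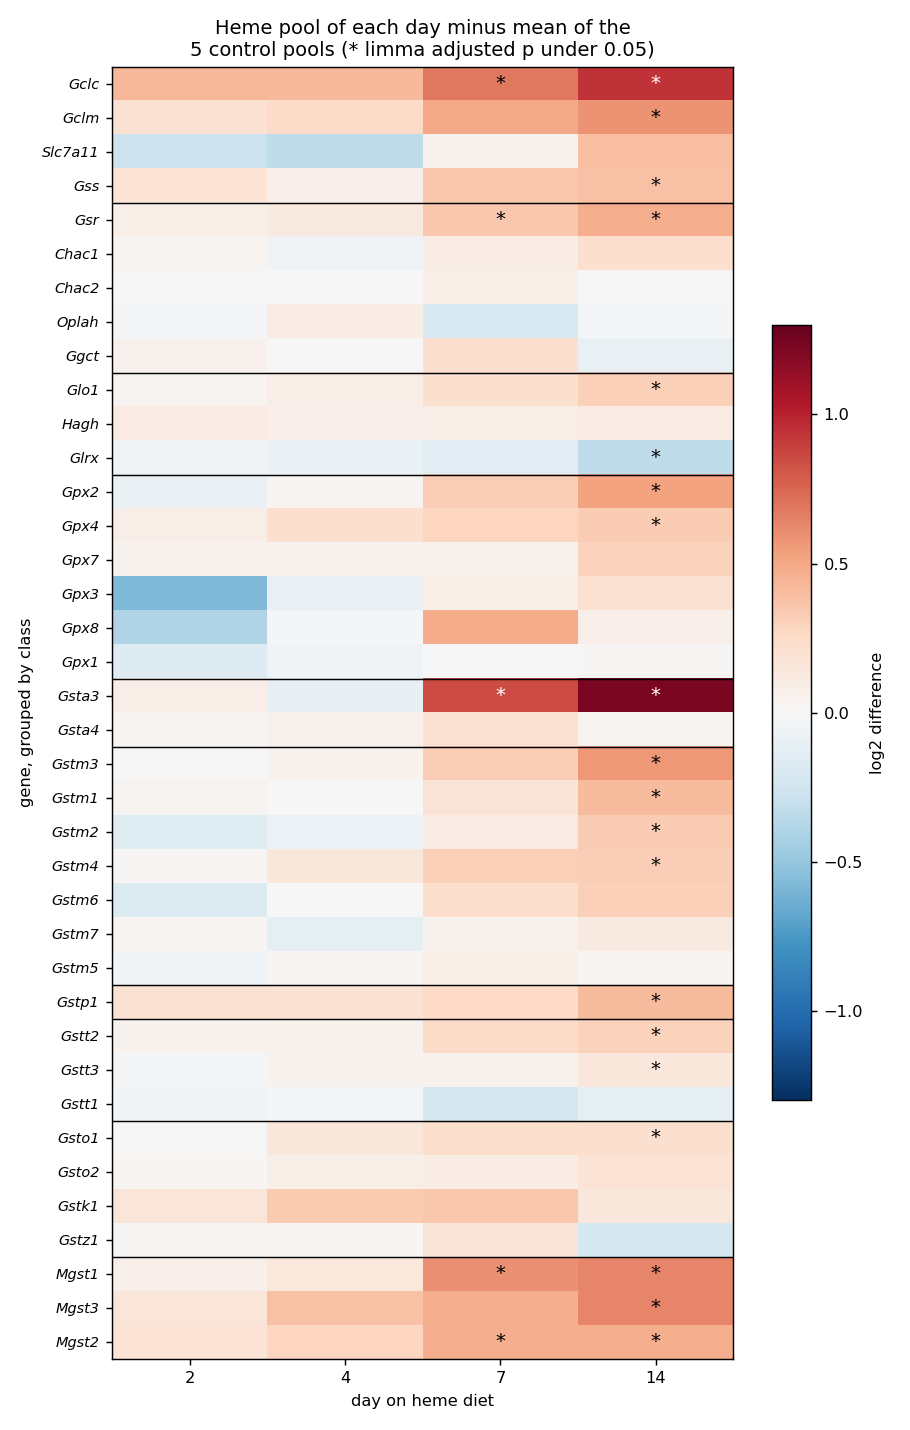
Log2 difference of each heme pool (columns, by day) from the mean of the 5 control pools for the 38 measured members (rows, grouped by class and divided by lines), in red where higher and blue where lower, with a star where limma's adjusted p was under 0.05. Stars number 0 on days 2 and 4, 5 on day 7 and 20 on day 14, and the strongest colour is Gsta3 on day 14 at 1.23.

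The members differed in when they parted from the controls. Gclc stood at 0.43, 0.42, 0.68 and 0.94 log2 above the control mean on days 2, 4, 7 and 14. Gsta3 stood at 0.08, -0.11, 0.85 and 1.23, and Mgst1 at 0.06, 0.14, 0.60 and 0.64. In 16 of the 38 members each heme pool was higher than that of the day before it in the series, 42.1% against 6.32% of all genes tested. The test of this timing compared the diet difference on days 7 and 14 with that on days 2 and 4. In limma it called 0 members and 0% of all genes. An unadjusted p under 0.05 was found for 10 members, all with a larger difference late, against 6.62% of all genes. Mgst1 had a late minus early difference of 0.44 (adjusted p = 0.317), Gsta3 0.87 (adjusted p = 0.394), Mgst2 0.30 (adjusted p = 0.556) and Gclc 0.36 (adjusted p = 0.677). None of these differences in timing passed the test over all genes.

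**Figure D4:**
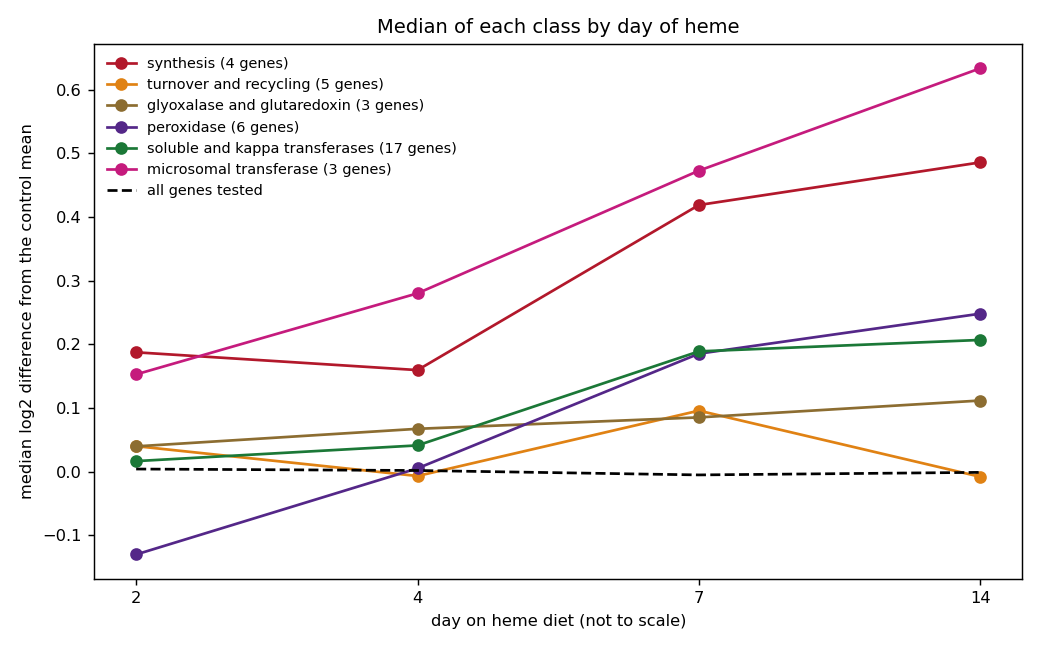
Median log2 difference from the control mean (vertical axis) by day on heme (horizontal axis, not to scale) for 6 classes of genes, with all genes tested as a dashed line. The microsomal transferases reach 0.63 and the synthesis genes 0.49 on day 14, while turnover and recycling genes lie at -0.01, level with all genes.

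By class median, the synthesis genes stood at 0.19, 0.16, 0.42 and 0.49 log2 above the control mean on days 2, 4, 7 and 14, and the microsomal transferases at 0.15, 0.28, 0.47 and 0.63. The peroxidases were at -0.13, 0.01, 0.19 and 0.25, and the other transferases at 0.02, 0.04, 0.19 and 0.21. Glyoxalases and glutaredoxin were at 0.04, 0.07, 0.09 and 0.11, and turnover and recycling genes at 0.04, -0.01, 0.10 and -0.01. Over all genes tested the median stayed between -0.005 and 0.004 on each day. No test was made between classes. On the control diet alone a slope over the 5 pools called 0 members and 0% of all genes in limma. At an unadjusted p under 0.05 there were 3 members, Gpx3, Gpx4 and Gstm3, all rising with time, against 7.18% of all genes.

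Other genes that make, move or use glutathione formed a second list. Of 34 listed, 30 were measured and 27 tested, with a median log2 fold change of 0.02. Abcc3, a basolateral exporter of conjugates, rose, with 10.58, 10.56, 10.72 and 10.83 log2 in the heme pools and 10.33, 10.37, 10.24, 10.35 and 10.29 in the control pools (0.36, limma adjusted p = 0.0187). Blocking on day gave an adjusted p of 0.0523. No gene of the list was called lower between the diets. At an unadjusted p under 0.05, 8 of the 27 were higher and 4 lower, against 2547 of the 14953 genes tested in either direction. Every heme pool lay above every control pool in 3 of the 30 measured, against 3.26% of all genes tested. In 1, Anpep, every heme pool lay below, at 6.21 to 6.36 against 6.44 to 6.64 (-0.21, limma adjusted p = 0.148), against 2.33% of all genes. On day 7, 2 of the 27 rose, Abcc3 and Esd, against 0.883% of all genes. On day 14, 9 rose, Abcc2, Abcc3, Abcc4, Abcc5, Cth, Ggt7, Glrx5, Esd and Ethe1, or 33.3% against 11.3% of all genes, and 3 fell, against 15.8%. Abcc4, another exporter, was 1.74-fold above the control mean on that day (limma adjusted p = 0.00413) and Abcc2, the apical exporter, 1.48-fold (adjusted p = 0.0333). Esd, which releases glutathione from its formyl conjugate, was 1.40-fold above it (adjusted p = 0.00493). Esd was also called on day 7 (0.45 log2, adjusted p = 0.0267), and its heme pools, at 10.07, 10.13, 10.45 and 10.49, lay above all its control pools, at 9.91, 10.00, 10.02, 10.00 and 10.06. Hpgds, the prostaglandin D synthase of the sigma class, fell to 6.46 log2 in the heme pool of day 14, against 6.97 to 7.21 in the control pools (adjusted p = 0.0124). Slc25a40 and Lancl1 were the other two that fell, at -0.32 and -0.29. Slc3a2, the partner of Slc7a11, had a log2 fold change of -0.03 between the diets (adjusted p = 0.591).

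The regulators of Nrf2 had small diet fold changes, from -0.08 to 0.13 log2. None of the 9 passed the diet test of limma. Only the adaptor Sqstm1, at 0.13 (adjusted p = 0.156), had an unadjusted p under 0.05, against 2547 of the 14953 genes tested. Its heme pools, at 10.65 to 10.75, lay above all its control pools, at 10.47 to 10.60, against 3.26% of all genes. Nfe2l1 and Cul3 were below the same-day control pool on all 4 days, against 12% of all genes. On day 7, 8 of the 9 were below the control mean and 0 were called. Nfe2l2 itself had 10.60, 10.61, 10.49 and 10.51 log2 in the heme pools and 10.60, 10.67, 10.60, 10.66 and 10.55 in the control pools (-0.07, adjusted p = 0.382). Keap1 was at 0.02 and the repressor Bach1 at -0.06 (adjusted p = 0.798 and 0.531). On day 14 Mafg and Sqstm1 rose by 0.16 and 0.19, and Nfe2l1 and Cul3 fell by 0.17 and 0.18 (adjusted p = 0.0283, 0.0404, 0.0441 and 0.0273). These are 2 of 9 in each direction, on a day when 11.3% of all genes were called higher and 15.8% lower, and with so few genes nothing is read from them.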

How the data were processed

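RNA of colon scrapings was pooled within diet and day, and each of 9 pools was hybridised to 1 array. The deposited log2 values per probeset were made by the authors with RMA, per the submitters' processing notes, with no version given. RMA corrects background, quantile-normalizes arrays together and summarises probes by median polish, which removes overall shifts in RNA amount and leaves identical values in some arrays. Of 35556 probesets 21789 had 1 gene symbol in the platform annotation, 1621 had several and were left out, and 12146 were unnamed here. Genes whose mean reached the 25th percentile (4.716 log2) were tested, 14953 in all. Precision is limited by how many arrays there are.

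Tests used limma 3.58.1 in R 4.3.3 (lmFit, eBayes with an intensity trend), and the Benjamini-Hochberg adjustment ran over the whole set of tested genes. They compared 4 heme with 5 control pools, each heme day with the 5 control pools, the diet difference of days 7 and 14 with that of days 2 and 4, and the control pools over log2(day + 1). The diet test was checked on simulated data, drawn for both diets with the spread of the control pools and no effect of day. That check does not cover genes whose heme pools spread more, such as Gclc (SD 0.24 against 0.09). Tables and figures used Python 3.11.15, pandas 2.3.3 and matplotlib 3.10.9. The members and lists were chosen with earlier results of these data known. Full values are given for members called in any comparison, for the highest and lowest diet fold change of each class, and for a fixed set of well-known enzymes. Pools of 1 day share that day by their labels, though not animals. Their deviations from the diet means correlated with r = 0.651, -0.005, 0.333 and 0.168 on days 2, 4, 7 and 14. Between pools of different days r ran from -0.454 (heme day 2, control day 14) to 0.422 (heme day 7, control day 14), so only day 2 stood above all of these. Both pools of that day held exocrine pancreas RNA, whose part in this was not tested. Blocked values are given where they change a call.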

Additional observations from a re-analysis of the deposited data

Results flagged for a closer look

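A gap test for a single pool far from the rest of its diet was run on 76 sets of pools, 38 members in heme and in control pools, and marked 6. Chance marks about 1 in 20 where no values are tied. Every marked set held a value repeated among its pools by the summarising step, so that rate does not apply to the marks. In heme pools it marked Chac2 on day 7, at 6.63 log2 against 6.53 for the nearest other pool, and Gpx7 on day 14, at 4.58 against 4.34. In control pools it marked Chac1 on day 7, at 6.07 against 6.27, Gpx1 on day 14, at 10.39 against 10.36, Gstm7 on day 4, at 7.03 against 7.13, and Gstt3 on day 14, at 8.93 against 8.96. No member had a late minus early difference past the threshold.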

How the results depend on the processing

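Counts of members, class medians and the members' fold changes were recomputed with other filters on dim genes, the mean of all probesets, centred arrays and without single pools, and the tests also without an intensity trend. The diet and late minus early comparisons were refitted with the day as a replicate block, and the diet comparison without both pools of day 2, 7 or 14. For the second list and the regulators only the block was tried on single genes. Members called higher between the diets numbered 1 without an intensity trend, 1 with the day as a replicate block (Mgst3), 3 without both pools of day 2, and 0 without both pools of day 7 or of day 14, where 0 of 14953 genes were called at all (the last chosen after seeing the data), and 0 to 6 without single pools. On day 7 they numbered 10 with centred arrays, where 274 of 14953 genes were called higher, and 0 to 1 without single control pools. Members called lower on day 14 numbered 1 to 2. The median of the soluble and kappa transferases was 0.185 without both pools of day 2 and 0.0672 to 0.182 without single pools, and that of turnover and recycling genes was 0.007 to 0.0766, and that of peroxidases 0.0309 to 0.153, without single pools. Signs of the diet fold change turned in genes that the diet test did not call, among them Gstm2, which was called on day 14. Without both pools of day 2 Slc7a11 was at 0.0647 and Gpx3 at 0.0306. Without both pools of day 7 Ggct was at -0.0212, Chac2 at -0.0159, Oplah at 0.0509, Gpx8 at -0.0618 and Gstm6 at -0.0173. Without both pools of day 14 Gstm2 was at -0.0134, Gstm7 at -0.0115 and Gstz1 at 0.0686. With the day as a replicate block Chac2 was at -0.000461 and Gpx8 at -0.0445, and Gstz1 was at 0.0166 with centred arrays. Without single pools the log2 fold change ran for Slc7a11 from -0.188 to 0.0518, Ggct from -0.0178 to 0.0837, Chac2 from -0.00799 to 0.0378, Oplah from -0.085 to 0.0153, Gpx3 from -0.194 to 0.0625, Gpx8 from -0.119 to 0.173, Gstm2 from -0.0425 to 0.12, Gstm5 from -0.0156 to 0.0459, Gstm7 from -0.0199 to 0.0606 and Gstz1 from -0.0672 to 0.065. Single pools whose loss turned a sign within these ranges gave 0.0276 (day 14 control) and 0.0344 (day 2 heme) for Slc7a11, -0.0562 (day 2 control) for Gpx8, -0.00804 (day 4 control) for Gstm7 and 0.0163 (day 7 control) for Gstz1. The cause was not tested. Each diet and day is 1 array of pooled RNA, which limits every comparison by day.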
